A study of Mus musculus with 18 samples.

Results

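The genes described here encode the proteins of the cytosolic ribosome. They were taken from a macrophage expression table by symbol: names beginning Rpl or Rps with a digit, the stalk genes Rplp0, Rplp1 and Rplp2, and Rpsa, leaving out symbols marked -ps or -rs and the Rps6k kinases. The rule found 92 of 43309 genes: 43 large subunit genes, 31 small subunit genes, 3 stalk genes, 8 paralogs, 6 rows annotated as pseudogenes and Rps19bp1. Rps19bp1 encodes a binding partner of a ribosomal protein rather than a subunit. The cells were bone marrow-derived macrophages from C57BL/6 mice, grown with M-CSF and then held for 18 h either in LPS with interferon gamma (M1) or in IL-4 (M2). Total RNA was sequenced from WT cells, from PGRN knockout cells, which lack the progranulin gene Grn, and from cells with a myeloid knockout of 14-3-3e, the product of Ywhae. Each genotype and polarization had 3 libraries, giving 6 groups and 18 libraries. The driver of the myeloid deletion is not given in the labels, and nothing in them says that replicates were separate mice or cultures. The p-values therefore measure only the spread between these libraries.

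A cytosolic ribosome is built from a small subunit that reads the mRNA and a large subunit that joins amino acids, each made of rRNA and a fixed set of proteins. Most of these proteins are needed in equal number, and their mRNAs usually carry a 5′ terminal oligopyrimidine (TOP) tract through which mTORC1 and LARP1 control their translation together. Their short, abundant mRNAs have been copied back into mammalian genomes many times, leaving intronless copies that are close to identical to the parent coding sequence.

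Near-identical copies decide how far a row of the table can be read as a gene. Of the 92 members, 77 had at least 1 sequence copy elsewhere in the table, defined as a row at least 95% identical over at least 100 bases of the coding sequence, or over at least 80% of a shorter one. In all, 457 rows were such copies, 444 of them annotated as pseudogenes, and 84 had a mean of at least 100 normalized counts. Coding sequences of Rps27 and Rps27rt were 100% identical along their aligned length. That of Rps12 matched the Rps12l1 transcript at 100% of 396 bases, and the reverse search gave 96.4% of 414 aligned bases. Members were therefore also summed with their copies into 86 families, called family totals here, and the levels of single rows are uncertain wherever copies exist. Across the table, members held under 50% of the reads in 19 of the 86 families.

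Stretches of 90 coding bases are shown for the 3 members whose reads moved most between the gene and its copies across groups, so that the likeness can be seen. They come from the GENCODE M21 transcripts on GRCm38, and capitals mark the positions at which the sequences shown together differ. Rpl3 lies at chr15:80077791-80091868 on the minus strand, and its intronless copy Rpl3-ps1 at chrX:13202571-13203780 on the plus strand. The coding sequence of 1209 bases differed from the copy at 2 positions, and coding bases 12 to 101 hold 1 of them.
Rpl3: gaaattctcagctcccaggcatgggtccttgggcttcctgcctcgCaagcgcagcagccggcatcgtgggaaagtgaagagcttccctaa
Rpl3-ps1: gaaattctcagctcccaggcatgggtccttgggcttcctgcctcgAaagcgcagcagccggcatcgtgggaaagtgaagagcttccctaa

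Rps3a1 lies at chr3:86137940-86142702 on the minus strand. Its processed copies Rps3a2, at chr14:88123017-88123808 on the minus strand, and Rps3a3, at chr13:108670603-108671397 on the plus strand, match the same symbol rule. Rps3a2 differed from the Rps3a1 coding sequence at 4 of 792 positions and Rps3a3 at 8 of 791. Coding bases 582 to 671 hold 4 positions at which at least 1 of the copies differs.
Rps3a1: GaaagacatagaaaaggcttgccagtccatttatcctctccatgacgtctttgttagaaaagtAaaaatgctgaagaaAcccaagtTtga
Rps3a2: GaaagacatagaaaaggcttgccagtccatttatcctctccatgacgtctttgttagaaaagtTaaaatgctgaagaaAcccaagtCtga
Rps3a3: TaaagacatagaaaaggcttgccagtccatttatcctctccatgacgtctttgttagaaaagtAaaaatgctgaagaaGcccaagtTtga

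Rplp0 lies at chr5:115559467-115563727 on the plus strand, and its most heavily read copy Gm8730 at chr8:102864845-102865798 on the minus strand. They differed at 12 of 951 positions, 3 of them within coding bases 365 to 454.
Rplp0: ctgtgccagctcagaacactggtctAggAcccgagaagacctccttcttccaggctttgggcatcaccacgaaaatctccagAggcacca
Gm8730: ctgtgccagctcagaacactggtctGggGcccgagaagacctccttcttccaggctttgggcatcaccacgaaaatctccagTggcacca

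Depth ranged from 5.16 to 105.3 M reads per library, and 21336 genes had enough signal to be tested, 91 of the 92 members among them. Rpl10l, a testis-type paralog of Rpl10, was not. Grn was at 23.9 to 497.2 normalized counts in the 6 PGRN knockout libraries, against 26102 to 91739 in the others. Ywhae was at 4362 to 6214 in the 6 myeloid 14-3-3e knockout libraries, against 7432 to 9859 elsewhere. All 11 macrophage markers found in the table were expressed, at a summed 5013 to 23119 CPM. Stromal markers, 11 of 11 at 5 CPM or more in some library, summed to 17003 to 29227 CPM in WT, 12194 to 16017 in PGRN knockout and 28066 to 37888 in 14-3-3e knockout libraries. Markers of T and NK cells reached at most 6.96 CPM in sum, and none of the 10 reached 5 CPM. Neutrophil markers summed to 117.6 to 457.6 CPM with 8 of 10 at 5 CPM or more, B and plasma cell markers to 34.6 to 229.8 CPM with 3 of 8, and erythroid and megakaryocyte markers to 32.6 to 183.4 CPM with 3 of 10. No marker of these lists was at 0 in every library, and the part of other cells in the results was not tested. In bulk RNA, fewer cells of a type and less RNA per cell cannot be told apart. Reads of rRNA-like genes made up 14.6% in WT M2 replicate 3, 1.86% in WT M1 replicate 2 and at most 0.216% of any other library.

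The members together took a larger share of reads in M2 than in M1 within each genotype, and their share was highest in WT within each polarization. The 3 WT M1 libraries gave 4.01%, 2.77% and 3.03%, those of PGRN knockout M1 2.18%, 2.30% and 2.23%, and those of 14-3-3e knockout M1 2.67%, 2.44% and 2.56%. In M2 the values were 5.13%, 4.22% and 4.04% for WT, 3.22%, 3.27% and 3.22% for PGRN knockout, and 3.41%, 3.62% and 3.52% for 14-3-3e knockout. Every M2 library lay above every M1 library of its genotype, and in both polarizations the WT libraries lay above all knockout libraries. With copies added, the means were 4.18% ± 0.926 (SD, n = 3) for WT M1, 2.97% ± 0.0548 for PGRN knockout M1 and 3.55% ± 0.167 for 14-3-3e knockout M1. The M2 means were 5.80% ± 0.947, 4.37% ± 0.0276 and 4.96% ± 0.130. With copies added, the WT polarizations overlapped, WT M1 replicate 1 being at 5.19% and WT M2 replicate 3 at 4.90%. WT also no longer stood clear of the 14-3-3e knockout. WT M1 replicate 2, at 3.38%, was not above any 14-3-3e knockout M1 library. WT M2 replicate 3 lay among the 14-3-3e knockout M2 libraries. The totals behind these shares include rRNA-like reads, which dilute the share where they are many. When they were left out, members alone took 4.725% instead of 4.038% in WT M2 replicate 3. For WT M1 replicate 2 the change was from 2.766% to 2.818%. With copies added, shares were not computed without rRNA-like reads. Whether these overlaps would remain was therefore not tested.

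**Figure D1:**
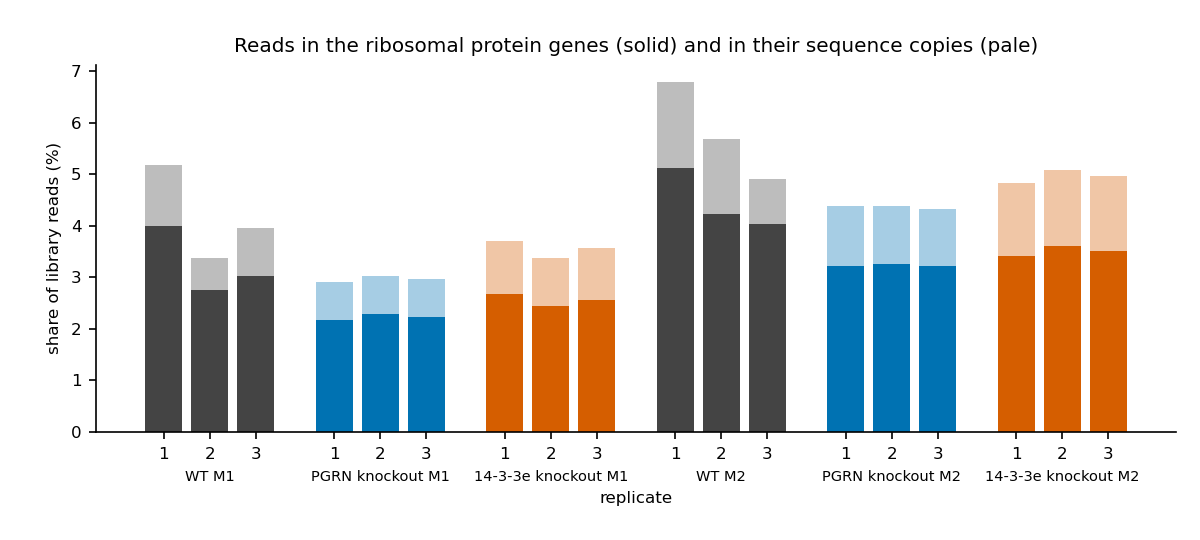
Share of each library's reads (%, y axis) in the 92 ribosomal protein genes (solid bars) and in their 457 sequence copies (pale bars on top), by group and replicate (x axis). Members take 2.18% to 4.01% in the M1 libraries and 3.22% to 5.13% in the M2 libraries.

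Replicate 1 of WT stood apart. Of 84 families with at least 100 normalized counts in every library, the total in WT M1 replicate 1 was the highest of the 9 M1 libraries in 82, and that in WT M2 replicate 1 the highest of the 9 M2 libraries in 82. WT M1 replicate 1 is the shallowest library, at 5.16 M reads, and WT M2 replicate 1 holds 14.2 M reads. The family totals also spread more in WT: the median SD over families was 0.35 on the log2 scale in WT M1 and 0.16 in WT M2, against 0.04 to 0.07 in the 4 knockout groups. Whether this sets the differences from WT was not tested beyond leaving libraries out, and those values stand beside each result.

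Levels per kilobase of transcript put Rpl41 and Rplp1 first, with means over all libraries of 43161 and 41618 normalized counts per kilobase. Rpl41 encodes a very short large subunit peptide and Rplp1 an acidic protein of the stalk that recruits elongation factors. Their order turned with the group, Rpl41 being ahead in all 3 M1 groups and Rplp1 in WT M2, PGRN knockout M2 and 14-3-3e knockout M2. Rps18, Rps15 and Rps9 followed at 22442, 22228 and 22002 per kilobase, and these 3 also changed places between groups. At the other end were Rpl10l at 0.213, the muscle-type paralog Rpl3l at 2.76, the pseudogene row Rps12l2 at 5.66, Rpl5 at 372.8 and Rps19bp1 at 511.1 per kilobase. Rpl5, which delivers the 5S rRNA to the large subunit, is low as a row only: the row held 0.943% to 2.07% of its family's reads in 16 libraries. The Rpl5 family total ran from 10534 to 20513 normalized counts.

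M1 cells had lower levels of ribosomal protein mRNAs than M2 cells in all 3 genotypes. In WT, 24 members fell and 1 rose of 91 tested, with a median log2 difference (M1 minus M2) of -0.22, against -0.04 over all genes. In PGRN knockout cells 29 fell and 4 rose, with a median of -0.28, and in 14-3-3e knockout cells 16 fell and 1 rose, with a median of -0.21. Over all genes 38.9%, 37.5% and 30.0% passed the same threshold in these comparisons (limma, Benjamini-Hochberg adjusted p under 0.05), and 20.0%, 19.5% and 14.4% fell. Of the members 27.5%, 36.3% and 18.7% passed in either direction and 26.4%, 31.9% and 17.6% fell, so calls were no more frequent than among other genes while falls were somewhat more so. By sign alone, 79, 77 and 77 of 91 lay below 0, where the medians over all genes were -0.04, -0.04 and 0.03. The share of all genes below 0 was not counted. Rows that share reads are not independent, so the sign counts only describe. By subunit, 10 of 43 large subunit and 10 of 31 small subunit genes fell in WT cells. The counts were 13 and 12 for the PGRN knockout, and 6 and 8 for the 14-3-3e knockout. For the large subunit, the WT and 14-3-3e knockout counts are near the share of all genes that fell.

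Summing copies gave more calls. Of 85 family totals tested, 36 fell and 1 rose in WT cells, 39 fell and 4 rose with the PGRN knockout, and 23 fell and 2 rose with the 14-3-3e knockout. The medians were -0.27, -0.29 and -0.24, and 39.8%, 38.4% and 30.8% of all genes passed, 20.5%, 19.9% and 14.8% by falling. In all 3 genotypes 23 family totals fell, among them Rpl3, Rpl4, Rpl5, Rpl8, Rplp0, Rps2, Rps18, Rps25 and Rpsa. The share of all genes that fell in all 3 was not counted. These comparisons share no library, but they come from 1 fit with 1 estimate of the spread per gene. All 3 M1 libraries lay below all 3 M2 libraries in 22 family totals of 84 in WT, 67 in PGRN knockout and 69 in 14-3-3e knockout cells, against 30.3%, 39.8% and 34.9% of genes. Called family totals in WT were 71 without WT M1 replicate 1, and called members 51. In 14-3-3e knockout cells 7 members were called without M1 replicate 3, and 16 family totals without M1 replicate 2. Leaving out WT replicate 1 in both polarizations gave 64, 65 and 55 called family totals in the 3 genotypes. Fits of only the groups compared called 16, 69 and 61. With a replicate block in that fit 63 were called in 14-3-3e knockout cells, the only genotype in which replicate numbers paired the libraries. Here and below, the share of all genes called is given for the main fit only. Counts from other fits therefore cannot be read against it.

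Rps2, a small subunit protein at the mRNA entry channel, was among the largest falls. Its normalized counts in M1 were 12267, 8273 and 9744 in WT and 8409, 8572 and 8504 in 14-3-3e knockout cells. The M2 libraries held 18571, 15266 and 16054 in WT and 11058, 12727 and 12133 in 14-3-3e knockout cells, so that the polarizations did not overlap in either genotype. The log2 difference was -0.73 (SE 0.16, adjusted p = 0.00108) in WT, -0.59 (SE 0.16, adjusted p = 0.006) in PGRN knockout and -0.49 (SE 0.16, adjusted p = 0.0228) in 14-3-3e knockout cells. Rpl3, a large subunit protein next to the peptidyl transferase centre, fell by 0.73, 0.74 and 0.46 on the log2 scale in WT, PGRN knockout and 14-3-3e knockout cells (adjusted p = 9.92e-07, 8.53e-07 and 0.000199). Rps18 fell by 0.60, 0.63 and 0.45 (adjusted p = 0.000609, 0.000384 and 0.00764), and Rps16 by 0.46, 0.55 and 0.45 (adjusted p = 0.0326, 0.012 and 0.0464). Both encode proteins of the small subunit head.

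Other large falls sat in rows whose reads are shared with copies. Rps7 fell by 0.85 in WT (adjusted p = 0.0251), and its family total by 0.53 (adjusted p = 3.95e-05). Rpl10a fell by 1.09 in PGRN knockout cells (adjusted p = 0.0153), and its family total by 0.91 (adjusted p = 2.58e-07). Rps12l1 fell by 0.76 in WT cells and by 0.95 with the PGRN knockout (adjusted p = 0.011 and 0.00228), whereas the family total with Rps12 differed by -0.35 and -0.43 (adjusted p = 0.0847 and 0.0367). Rps3a2 fell by 2.63 in WT (adjusted p = 0.0191), but it holds few of the reads of its family there.

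Few members were higher in M1. Rps4l, annotated as a pseudogene and related to the small subunit gene Rps4x, was at 1316, 914 and 887 normalized counts in WT M1 and 706, 667 and 533 in WT M2. It rose by 0.69 on the log2 scale in WT, 0.69 in PGRN knockout and 0.47 in 14-3-3e knockout cells (SE 0.14 each, adjusted p = 0.000919, 0.00104 and 0.0189), and no sequence copy of it was found. Rpl24, a large subunit protein at the intersubunit bridge, was at 6154, 5780 and 5978 in PGRN knockout M1, above the 4572, 4407 and 4189 of PGRN knockout M2. It rose by 0.44 there (SE 0.14, adjusted p = 0.0178), with differences of 0.34 and 0.30 in WT and 14-3-3e knockout cells (adjusted p = 0.0624 and 0.129). Rpl7l1, a nucleolar relative of Rpl7, rose by 0.19 in PGRN knockout cells (adjusted p = 0.0217), a direction that turned when libraries were scaled by their totals. Rpl3l rose by 2.80 there (adjusted p = 0.00406), at 6.14, 17.4 and 11.2 normalized counts in M1 and 1.36, 1.01 and 0 in M2.

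**Figure D2:**
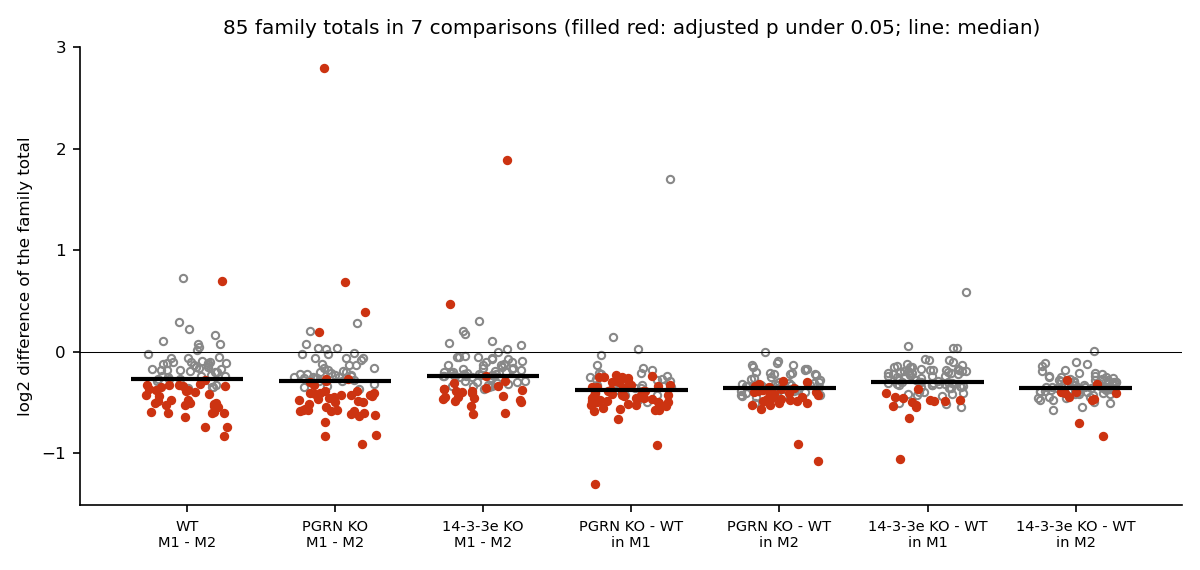
Log2 difference (y axis) of the 85 tested family totals in 7 comparisons (x axis; KO is knockout); filled points passed the threshold of 0.05 on the adjusted p, open points did not, and the line is the median. All 7 medians lie below 0, from -0.24 to -0.37, with the low-count Rpl3l highest, at 2.80 in PGRN knockout cells (M1 minus M2), and Rpl39l lowest, at -1.31 (PGRN knockout minus WT in M1).

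PGRN knockout cells had lower levels of ribosomal protein mRNAs than WT cells in both polarizations. In M1, 48 of 91 members fell and none rose, with a median log2 difference (knockout minus WT) of -0.44 against 0.01 over all genes, and 25.3% of all genes passed, 11.1% by falling. In M2, 33 fell and none rose, with a median of -0.38 against 0, and 19.4% of all genes passed, 8.30% by falling. By family total, 54 and 31 of 85 fell and none rose, where 26.0% and 20.0% of all genes passed, 11.4% and 8.55% by falling. In M2, 79 of 84 family totals had all 3 knockout libraries below all 3 WT libraries, against 25.5% of the 9379 genes with at least 100 normalized counts in every library. In M1 the count was 49 of 84, against 16.5%.

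Called family totals in M1 fell to 20 without WT M1 replicate 1 and reached 81 without WT M1 replicate 2, and a fit of these groups alone called 3. Called members were 19 and 69 without the same libraries. In M2 family totals called ranged from 4 without WT M2 replicate 1 to 35 without WT M2 replicate 2, and 11 members were called without PGRN knockout M2 replicate 2. Without replicate 1 of WT in both polarizations, 31 family totals were called in M1 and 59 in M2, and the fit of the M2 groups alone called 65.

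Among the largest falls was that of Rpl39l, a paralog of the exit tunnel protein Rpl39 best known from the testis. It stood at 508, 365 and 332 normalized counts in WT M1 and at 141, 174 and 164 in PGRN knockout M1. In M2 the values were 391, 340 and 294 in WT and 159, 164 and 158 in PGRN knockout cells, so the groups were well apart in both polarizations. The log2 difference was -1.31 (SE 0.15, adjusted p = 1.69e-05) in M1 and -1.08 (SE 0.15, adjusted p = 0.000128) in M2. In 14-3-3e knockout cells Rpl39l was at 336, 320 and 421 in M1 and 304, 301 and 343 in M2, with differences from WT of -0.15 and -0.10 (adjusted p = 0.534 and 0.745). The direct comparison of the knockouts, added after the values were seen, gave a difference of 1.16 in M1 (SE 0.15, adjusted p = 2.98e-05) and 0.97 in M2 (SE 0.15, adjusted p = 0.000224).

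Rps4l fell by 0.92 in M1 and 0.91 in M2 (SE 0.14, adjusted p = 0.000232 and 0.000326), from 533 to 1316 normalized counts in WT to 312 to 568 in PGRN knockout cells. Rpl10a, Rpl27a and Rps6 fell by 1.31, 1.31 and 1.09 in M1 (adjusted p = 0.00895, 0.0127 and 0.0366). Their family totals fell by 0.52, 0.50 and 0.34 (adjusted p = 0.000385, 0.0121 and 0.037), the rows being high in WT M1 replicate 2 for the split of reads described further on. Rpl13 fell by 0.92 and Rps12 by 0.81 in M2 (adjusted p = 0.0137 and 0.00449), with falls of the family total of 0.51 for Rpl13 (adjusted p = 0.0134) and a difference of -0.43 for Rps12 (adjusted p = 0.062).

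In 14-3-3e knockout cells the median difference of the members from WT was also below 0 in both polarizations. In M1, 30 of 91 fell and 2 rose, with a median of -0.35 against 0.07 over all genes, and 21.3% of all genes passed, 9.31% by falling. In M2, 26 fell and 2 rose, with a median of -0.40 against 0, and 6.69% of all genes passed, 3.37% by falling and 3.32% by rising. Some of the rows that fell have copies that rose, as described further on. Family totals gave fewer calls, 14 of 85 in M1 (16.5%) and 11 in M2 (12.9%), all of them falls. Of all genes 21.7% and 6.72% passed, 9.46% and 3.32% by falling. In M1 the family totals were thus called less often than other genes, while falls were more frequent. In M2, 81 of 84 family totals had all knockout libraries below all WT libraries, against 25.7% of genes, but in M1 only 9 of 84 did, against 20.3%. The calls in M1 turn on single libraries: 74 family totals were called without WT M1 replicate 2, 2 without 14-3-3e knockout M1 replicate 2, 7 without replicate 1 of WT in both polarizations, and 1 in a fit of these groups alone. In M2, 2 were called without WT M2 replicate 1, 17 without WT M2 replicate 2, 43 without replicate 1 of WT in both polarizations and 41 in the fit of these groups alone. Called members were 13 and 64 in M1 without WT M1 replicates 1 and 2, and 10 in M2 without WT M2 replicate 1.

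Rpl13a, a large subunit protein also known as part of an interferon gamma-activated translation inhibitor, fell clearly and has few reads in copies. Its counts were 26911, 15969 and 20710 in WT M1 and 12994, 13046 and 13554 in 14-3-3e knockout M1. The M2 libraries held 25652, 21390 and 23747 in WT and 14085, 15209 and 14048 in 14-3-3e knockout cells. Every knockout library lay below every WT library, and the row fell by 0.65 in M1 and 0.70 in M2 (SE 0.13, adjusted p = 0.003 and 0.0038). The same gene fell by 0.52 and 0.46 in PGRN knockout cells (adjusted p = 0.00688 and 0.0172). Rps4l fell by 1.05 and 0.83 (SE 0.14, adjusted p = 0.000212 and 0.00272).

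A difference of the knockout effect between M1 and M2 was tested for each member. With limma 0 of 91 passed for either knockout, with 2 at an unadjusted p under 0.05 for each, and 0 passed with voom weights. Without the 2 libraries rich in rRNA-like reads 1 member passed for each knockout. Over all genes 1.25% passed for PGRN and 0.286% for 14-3-3e, so that a count of 0 among 91 is near the background. The PGRN and 14-3-3e comparisons share the WT libraries, so their values are side by side here and are no independent support of each other. Compared directly, the knockouts differed in 8 members in M1 and 7 in M2, where 25.0% and 18.2% of all genes passed (in M2 8.29% higher and 9.92% lower in the 14-3-3e knockout), and by family total in 4 (Rpl39l, Rpl3, Rpl10a and Rpl4) and 1 (Rpl39l), where 25.6% and 18.6% passed.

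In 14-3-3e knockout cells, large changes of several rows with copies were not called in the family totals. Rpl3 was at 13065, 11684 and 11472 normalized counts in WT M1 and at 5223, 4594 and 4430 in 14-3-3e knockout M1. In M2 it was at 21611, 18099 and 20449 in WT and at 6331, 6542 and 6687 in the knockout. The copy Rpl3-ps1 did the opposite, with 1427, 482 and 957 in WT M1 against 8796, 8373 and 8448 in the knockout, and 1849, 2493 and 913 in WT M2 against 13446, 13683 and 13869. Neither row overlapped between the genotypes, and Rpl3 fell by 1.35 and 1.62 (SE 0.08, adjusted p = 1.97e-08 and 2.19e-09) while Rpl3-ps1 rose by 3.29 and 3.08 (SE 0.37, adjusted p = 9.59e-05 and 0.000256). The family total differed by 0.03 in M1 and -0.11 in M2 (SE 0.07, adjusted p = 0.792 and 0.399). Rpl3 held 31.9% to 37.2% of its family's reads in the 6 14-3-3e knockout libraries and 83.9% to 95.7% in the 12 others. The sequences differ at only 2 coding positions, as shown above. With the PGRN knockout Rpl3 fell by 0.29 and 0.27 (adjusted p = 0.0137 and 0.0214), and its family total differed by -0.25 and -0.18 (adjusted p = 0.0187 and 0.104).

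The Rps3a rows behaved likewise. Rps3a1, a small subunit protein near the mRNA exit, was at 22836, 14015 and 16004 in WT M1 and 8551, 7277 and 6457 in 14-3-3e knockout M1, and at 21547, 16804 and 20266 against 7912, 9468 and 7973 in M2. Rps3a3 was at 24.0 to 40.1 in WT M1 and 35.7 to 82.5 in WT M2, but at 3326, 2527 and 3366 in 14-3-3e knockout M1 and 3502, 2856 and 4309 in 14-3-3e knockout M2. Rps3a2 was at 40.1, 332 and 116 in WT M1, 1207, 1799 and 174 in WT M2, and 4349 to 6212 in the 6 knockout libraries. Rps3a1 fell by 1.22 and 1.21 (SE 0.15, adjusted p = 6.67e-05 and 0.000106). Rps3a3 rose by 6.46 and 6.01 (SE 0.58, adjusted p = 1.05e-05 and 3.19e-05), and Rps3a2 by 5.31 and 3.01 (SE 0.80, adjusted p = 0.00117 and 0.0439). These 2 copies are the only members that rose in either 14-3-3e comparison. The family total differed by -0.21 in M1 and -0.21 in M2 (SE 0.12, adjusted p = 0.25 and 0.337). The share on Rps3a1 was 43.1% to 53.6% in the 14-3-3e knockout and 90.1% to 99.6% elsewhere. In PGRN knockout cells Rps3a1 fell by 0.51 in M1 (adjusted p = 0.0172), its family total by 0.46 (adjusted p = 0.0118), and neither passed in M2.

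**Figure D3:**
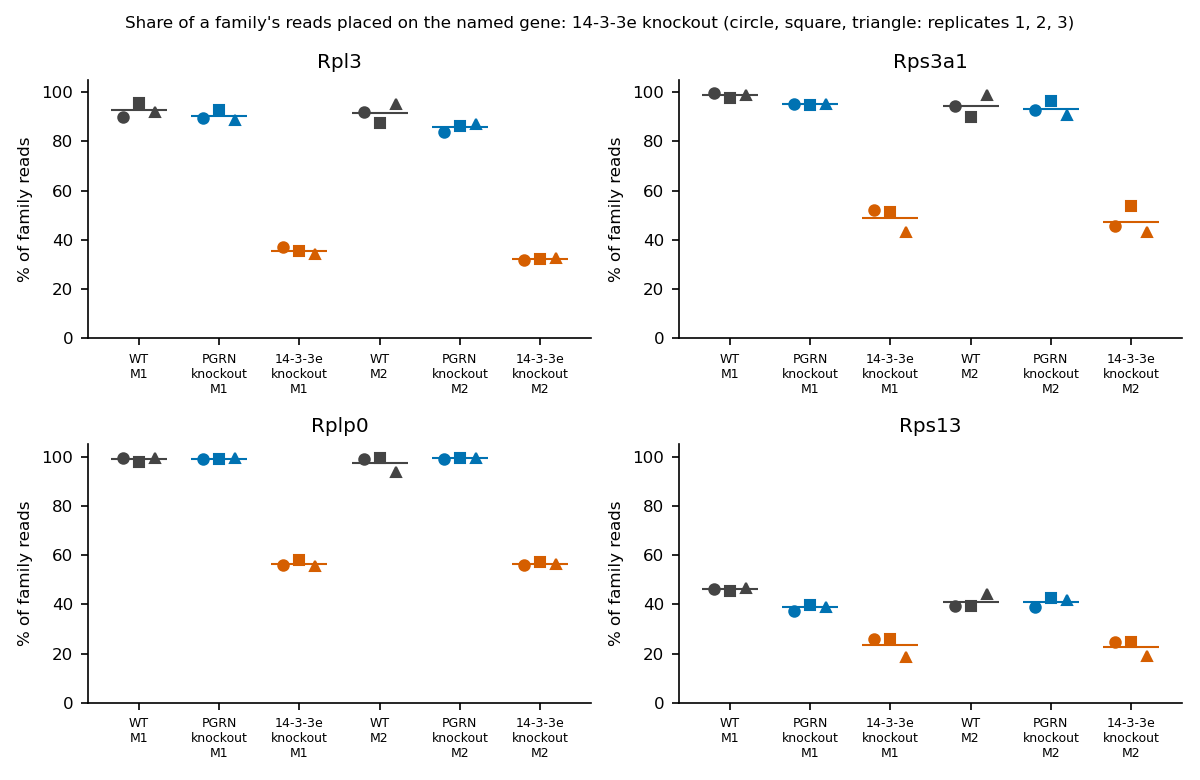
Share (%, y axis) of a family's reads placed on Rpl3, Rps3a1, Rplp0 and Rps13 in each of the 18 libraries, by group (x axis), with the mean of 3 as a line. In all 4 panels the 6 libraries of the 14-3-3e knockout lie below the 12 others, for Rplp0 at 55.7% to 57.9% against 93.7% to 99.6%.

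Rplp0, the stalk base that holds the acidic stalk proteins, showed the same split and no copy of it matched the symbol rule. It fell by 0.91 in M1 and 1.03 in M2 in 14-3-3e knockout cells (SE 0.09, adjusted p = 4.74e-06 and 1.49e-06), from 23807 to 31214 to 14071 to 14601 normalized counts in M1. Gm8730 was at 0, 407 and 30.5 in WT M1 and at 8581, 7649 and 8436 in 14-3-3e knockout M1, a rise of 8.45 (SE 1.69, adjusted p = 0.00554). In M2 it differed by 5.38 (adjusted p = 0.079), with WT M2 replicate 3 at 1996. The copies Gm9625 and Gm14165 rose by 4.22 and 7.50 in M1 and by 3.67 and 6.67 in M2 (adjusted p = 1.97e-08, 9.24e-06, 1.34e-07 and 4.81e-05). The family total differed by -0.10 and -0.25 (SE 0.08, adjusted p = 0.392 and 0.0772). With the PGRN knockout Rplp0 fell by 0.32 and 0.29 (adjusted p = 0.0106 and 0.0232) and its family total by 0.33 and 0.32 (adjusted p = 0.00671 and 0.00931), with 99.2% to 99.5% of reads on the gene.

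Rps13, a small subunit protein at the bridge to the large subunit, fell by 1.39 and 1.21 (SE 0.18, adjusted p = 0.000166 and 0.000912) in 14-3-3e knockout cells. Rps13-ps1, which matches 99.6% of its coding bases, rose by 3.65 and 3.05 (adjusted p = 5.46e-05 and 0.000366). The family total differed by -0.39 and -0.35 (adjusted p = 0.0604 and 0.151). Among all members, Rpl3, Rplp0 and Rps3a1 had every 14-3-3e knockout library at least 20 percentage points below every other library in their share of family reads, and no member had the reverse. Which property of the libraries moves with it was not tested.

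Rpl17, a large subunit protein at the tunnel exit, lies on chromosome 18 and had 9.68% to 42.6% of its family's reads in M1 libraries and 5.31% to 51.3% in M2 libraries. Most of the rest lay on Rpl17-ps5 and Rpl17-ps8, at 3586 to 6624 and 1127 to 6127 normalized counts. Rpl17 itself was at 4470, 1981 and 6762 in WT M2 and at 990, 1402 and 579 in 14-3-3e knockout M2, where it fell by 2.07 (SE 0.47, adjusted p = 0.0212). In M1 it was at 1810, 4434 and 3270 in WT and 1310, 2437 and 980 in the knockout, which overlap, with a difference of -1.02 (SE 0.47, adjusted p = 0.14). The family total was at 15386, 12700 and 13194 in WT M2 and 10794, 11163 and 10914 in 14-3-3e knockout M2, a difference of -0.32 (SE 0.11, adjusted p = 0.0945). With the PGRN knockout the row differed by -0.51 in M1 and -1.13 in M2 (adjusted p = 0.484 and 0.117), and the family total by -0.35 and -0.20 (adjusted p = 0.0315 and 0.242). M1 and M2 did not differ past the threshold in any genotype, by row or by family total.

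A separate split set 2 WT libraries apart. In WT M1 replicate 2 and WT M2 replicate 3, the libraries with the most rRNA-like reads, parent genes took far more of their family's reads than in the other 16. In those 2 libraries the 10 members Rpl5, Rpl10a, Rpl12, Rpl15, Rpl27, Rpl27a, Rpl28, Rpl31, Rpl38 and Rps6 had shares at least 20 percentage points above those of all 16 others. Rpl27, for example, held 72.8% and 82.9% of its family against 8.92% to 12.6% elsewhere, and Rps6, the mTORC1-S6 kinase substrate of the small subunit, 90.1% and 97.1% against 27.0% to 41.4%. Rps6 stood at 8174, 11617 and 6583 in WT M1 and at 6727, 4884 and 19341 in WT M2, while its family total was 19750, 12895 and 16199, and 22123, 18028 and 19915. The row is highest in the library whose family total is lowest in WT M1. Whether the rRNA-like reads and the split share a source was not tested. Without these 2 libraries 77 members and 82 family totals were called for PGRN knockout against WT in M1. For 14-3-3e knockout the counts were 74 and 75. The share of all genes called without these libraries is not given, so a rise particular to the members cannot be read from them.

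**Figure D4:**
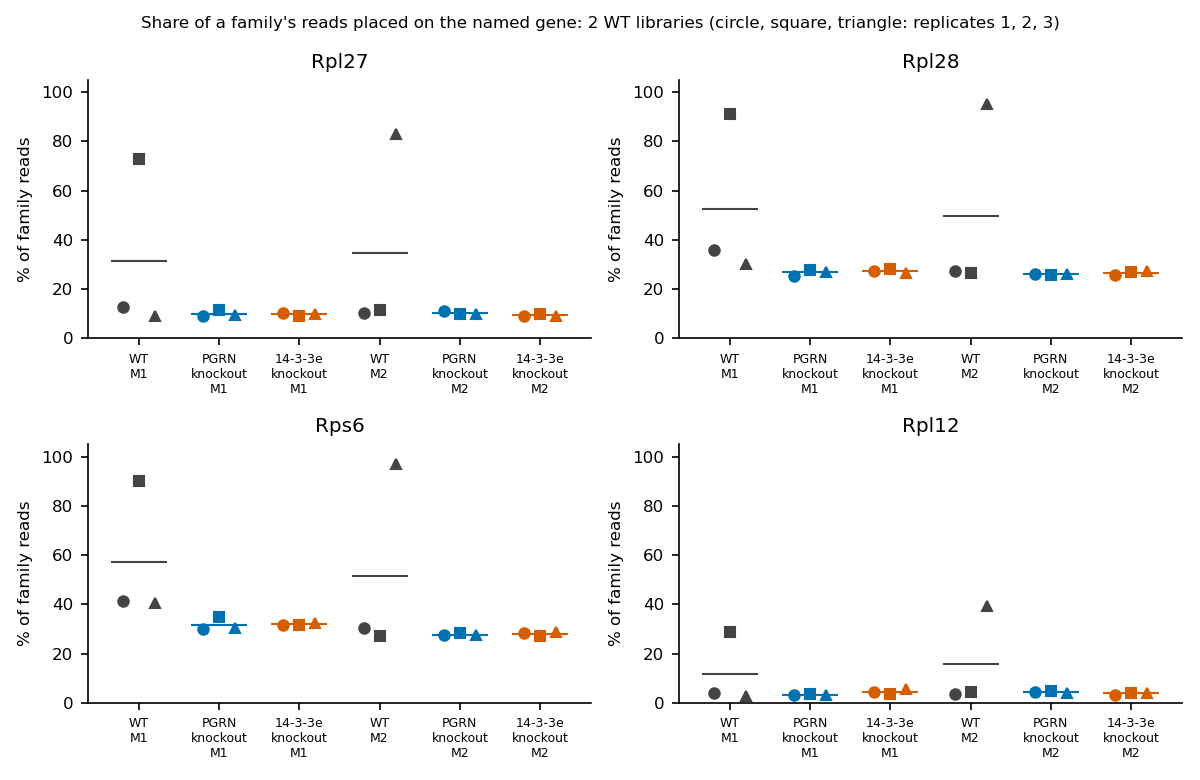
Share (%, y axis) of a family's reads placed on Rpl27, Rpl28, Rps6 and Rpl12 in each library, by group (x axis), with the mean of 3 as a line. WT M1 replicate 2 (square) and WT M2 replicate 3 (triangle) lie above the 16 other libraries, for Rpl28 at 91.2% and 95.3% against 25.5% to 35.9%.

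Rplp1 and Rplp2 are the acidic stalk proteins held by Rplp0. Rplp1 stood at 16293 to 32204 normalized counts in WT M1 and 15433 to 16075 in 14-3-3e knockout M1, and fell there by 0.48 (SE 0.16, adjusted p = 0.045). In the other 3 knockout comparisons it differed by -0.41 to -0.48 without passing (adjusted p = 0.0639, 0.0905 and 0.0859). Rplp2 passed in none of the 7 comparisons, with adjusted p from 0.085 upward, and its WT M1 values of 15714, 6799 and 9476 overlapped those of the knockouts in M1, 6461 to 7647. Rpsa, the laminin-receptor protein of the small subunit, held 16.1% to 46.0% of its family's reads. Its row passed in no comparison, but its family total fell in M1 against M2 by 0.54, 0.62 and 0.49 (adjusted p = 0.00562, 0.0019 and 0.014) and in PGRN knockout cells by 0.58 in M1 and 0.49 in M2 (adjusted p = 0.00669 and 0.0213). For the row in PGRN knockout M1 the sign was opposite, at 0.29 (adjusted p = 0.608).

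The paralogs differed among themselves. Rps27l, a p53-responsive relative of Rps27, fell in M1 against M2 by 0.65, 0.51 and 0.41 in WT, PGRN knockout and 14-3-3e knockout cells (adjusted p = 7.65e-05, 0.000679 and 0.0052), from 2450 to 2831 normalized counts in WT M2 to 1396 to 2024 in WT M1. It also fell by 0.39 and 0.52 in PGRN knockout cells in M1 and M2 (adjusted p = 0.0108 and 0.00188) and by 0.41 in 14-3-3e knockout M2 (adjusted p = 0.0261). Rpl22, whose protein binds RNA outside the ribosome, fell by 0.46 and 0.38 in PGRN knockout and 0.45 and 0.44 in 14-3-3e knockout cells (adjusted p = 0.00847, 0.0325, 0.0147 and 0.0346). Its paralog Rpl22l1 was at 751, 802 and 778 in PGRN knockout M1 against 1118, 1299 and 1107 in PGRN knockout M2, a fall of 0.59 (adjusted p = 0.00896), and fell by 0.63 against WT in M1 (adjusted p = 0.0105). Rpl36al fell by 0.64 and 0.78 in PGRN knockout cells and 0.59 and 0.78 in 14-3-3e knockout cells (adjusted p = 0.0158, 0.00587, 0.0302 and 0.0178), but its family total passed in 1 of the 4 only, PGRN knockout M1 (adjusted p = 0.0406). Rpl37rt, which matches Rpl37 at 99.7% of 344 aligned bases, fell by 0.39, 0.43, 0.51 and 0.59 in those 4 comparisons (adjusted p = 0.0306, 0.0235, 0.0107 and 0.0111). The Rpl37 row passed in none of the 7 comparisons, and the Rpl37 family total, which was -0.38, -0.36, -0.41 and -0.45 in those 4, fell in M1 with each knockout (adjusted p = 0.0431 and 0.038) and did not pass in M2 (adjusted p = 0.0686 and 0.0533). Rps27rt, Rps12l2, Rpl7l1 and Rpl3l passed in none of the 4 comparisons of a knockout with WT.

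**Figure D5:**
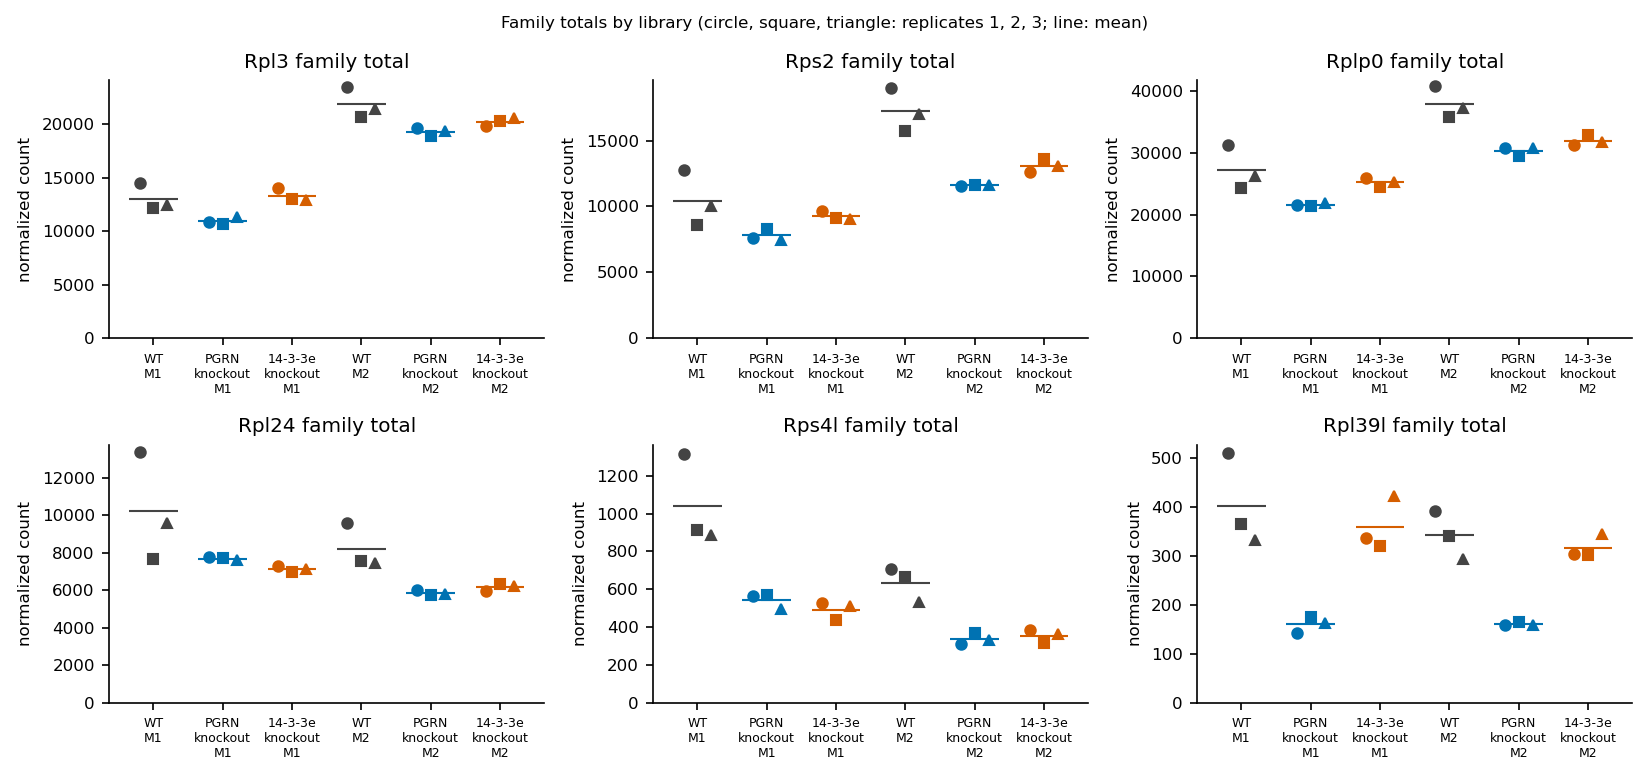
Family totals (normalized counts, y axis) of Rpl3, Rps2, Rplp0, Rpl24, Rps4l and Rpl39l in each library, by group (x axis), with the mean of 3 as a line. Rpl3, Rps2 and Rplp0 are higher in M2, Rps4l is higher in M1, and Rpl39l is at 141 to 174 in the 6 PGRN knockout libraries and at 294 to 508 in the others.

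Since these genes are known for a shared TOP start, the RefSeq promoters of GRCm38.p6 were searched for it. The pattern was a C within 5 bases of the annotated start, followed by at least 5 further C or T on the sense strand. It was found in 25 of the 57 subunit and stalk genes with an entry (43.9%), in 2 of 8 paralogs, in 4 of 69 mitochondrial ribosomal protein genes (5.80%) and in 11.9% of all 27025 genes. Annotated starts can lie some bases from those used in the cell. A start without the pattern therefore says only that no such run begins within 5 bases of it. C and T runs that begin further away, as in the bases shown for Rpl39l and Rps27l, were not counted. The 30 bases around the start, 15 before and 15 after, are shown for members that fell or rose together or apart, with the run in capitals where there is one.
Rps2 (chr17:24720048-24720077, plus strand): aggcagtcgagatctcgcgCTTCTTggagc
Rpl13a (chr7:45128731-45128760, minus strand): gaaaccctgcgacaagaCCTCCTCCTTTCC
Rpl22l1 (chr3:28805493-28805522, plus strand): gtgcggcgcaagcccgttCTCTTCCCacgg
Rpl24 (chr16:55966260-55966289, plus strand): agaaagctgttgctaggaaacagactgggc
Rpl39l (chr16:10170213-10170242, plus strand): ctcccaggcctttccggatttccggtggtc
Rps27l (chr9:66946071-66946100, plus strand): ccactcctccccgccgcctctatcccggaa

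Rps2, Rpl13a and Rpl22l1 hold the run within that reach of the annotated start, whereas Rpl24, Rpl39l and Rps27l do not. Rplp0, Rps3a1, Rps25 and Rpl7l1, looked up as well, lack it too. Among genes that fell in M1 against M2, Rps2 and Rpl22l1 hold the run, and Rplp0, Rps25 and Rps27l do not. Rpl13a and Rpl39l were called in no M1 against M2 comparison. The share of starts with the run among all falls was not counted.

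Lists of other genes of the translation machinery were counted in the same way, by single rows. Of all genes 20.0%, 19.5% and 14.4% fell in M1 and 18.9%, 18.0% and 15.6% rose, to be read beside them. Copies of the genes in these lists were not sought or summed. Their rows are therefore as uncertain as those of members wherever copies exist. Of 27 snoRNP and rRNA processing genes tested, 25, 23 and 23 fell in WT, PGRN knockout and 14-3-3e knockout cells, with medians of -0.83, -0.62 and -0.50. Dkc1, the pseudouridine synthase of H/ACA particles, fell by 1.69, 1.60 and 1.24 (adjusted p = 2.01e-10, 4.14e-10 and 1.53e-08), and Nolc1 by 1.36, 1.03 and 0.93 (adjusted p of 1.29e-07 or lower). Ribosome assembly genes fell in 21, 15 and 16 of 29 and rose in 2, 2 and 1. Gnl3 fell by 1.53, 1.35 and 1.19 and Tsr1 by 1.35, 1.27 and 0.82, both with adjusted p of 8.2e-07 or lower. Elongation factors fell in 7, 6 and 6 of 8, Eef1a1 by 0.62, 0.69 and 0.31, Eef1g by 0.70, 0.67 and 0.48 and Eef2 by 0.50, 0.54 and 0.19. Of 30 initiation factors 16, 13 and 7 fell and 4, 2 and 2 rose, with Eif4g1 falling by 0.84, 0.72 and 0.53. Of 16 genes for rRNA synthesis 8, 7 and 5 fell and 2, 3 and 1 rose, Polr1b falling by 1.19, 0.84 and 0.61.

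Myc, a driver of ribosomal gene transcription, fell by 1.50, 1.63 and 0.80, while Mxd1, which encodes a repressor that competes for its partner, rose by 2.53, 2.64 and 2.13 (adjusted p = 5.59e-11, 3.32e-11 and 6.5e-10). They belong to a list of 19 genes of mTORC1 and TOP mRNA control, of which 8, 11 and 8 fell and 2, 3 and 1 rose. Of 13 quality control and release genes 7 fell in each genotype and 2, 1 and 1 rose, with Abce1, which splits ribosomes after termination, down by 0.99, 1.05 and 0.62. Among mitochondrial ribosomal protein genes, which serve the separate ribosome of mitochondria, 19, 37 and 16 of 81 rose and 10, 5 and 6 fell. The rises in WT and 14-3-3e knockout cells were near the share of all genes. Medians were 0.12, 0.26 and 0.07, and Mrpl30 rose by 0.67, 0.86 and 0.69. Another list held 1643 protein-coding genes of at least 50 CPM whose annotated transcripts, all counted, had a median length under 1000 bases. Their median differences were 0.02, 0.05 and 0.07. That length is not the length of the mRNA expressed, and the list holds Grn and Ywhae. It is therefore no set matched to the members by mRNA length.

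In the comparisons with WT the lists moved in both directions. Of all genes 11.1% and 8.30% fell and 14.2% and 11.1% rose in PGRN knockout M1 and M2, and 9.31% and 3.37% fell, of 21.3% and 6.69% that passed, in 14-3-3e knockout M1 and M2. In PGRN knockout cells the snoRNP list had 6 falls and 3 rises in M1 and 11 falls in M2, the assembly list 1 and 1 in M1 and 7 falls in M2, and the elongation list 3 falls in each. Initiation factors had 5 falls and 3 rises in M1 and 4 falls in M2, rRNA synthesis genes 1 fall and 2 rises, then 3 falls, and quality control genes 1 fall and 3 rises, then 3 rises. Nop58 fell by 0.25 and 0.37 (adjusted p = 0.0163 and 0.00178) and Eef1g by 0.33 and 0.36 (adjusted p = 0.0115 and 0.00943). In the mTORC1 and TOP list, 9 genes rose and 3 fell in M1 and 8 rose and 4 fell in M2. Tsc1, which restrains mTORC1, rose by 0.55 and 0.98 (adjusted p = 0.00011 and 5.9e-07), and Eif4ebp1, a translation repressor that mTORC1 switches off, fell by 0.48 and 0.79 (adjusted p = 0.00274 and 4.83e-05). In 14-3-3e knockout cells the snoRNP list had 1 fall and 6 rises in M1 and 4 falls in M2, the assembly list 3 falls and 5 rises and then 5 falls, and the elongation list 2 rises and then no call. Initiation factors had 4 falls and 7 rises in M1 and 1 fall in M2, and rRNA synthesis genes 4 falls and 4 rises and then 4 falls. Quality control genes had 6 rises in M1 and 2 in M2, and the mTORC1 and TOP list 2 falls and 6 rises and then 1 fall. Mitochondrial ribosomal protein genes fell in 7 and 21 of 81 in PGRN knockout and in 32 and 14 of 81 in 14-3-3e knockout cells in M1 and M2, and rose in 2, 0, 3 and 1. The 7 falls in PGRN knockout M1 are below the share of all genes. Mrps12 was down by 1.14 and 1.17 in the latter (adjusted p = 9.21e-05 and 0.000106). The genes listed by a short median annotated transcript length had medians of 0.07 and 0.02 in PGRN knockout and -0.04 and -0.07 in 14-3-3e knockout cells. Marker sums of other cell types also differed between genotypes. Erythroid and megakaryocyte markers summed to 109.1 to 183.4 CPM in WT, 32.6 to 60.3 in PGRN knockout and 57.5 to 121 in 14-3-3e knockout libraries. The PGRN knockout lay below WT, and the 14-3-3e knockout overlapped WT at the top of its range. Of that list Pf4, a platelet chemokine, fell against WT by 2.30 and 2.02 in PGRN knockout and 1.24 and 0.61 in 14-3-3e knockout cells in M1 and M2 (adjusted p = 8.81e-08, 3.41e-07, 8.84e-05 and 0.0272). Most of the list did not pass: of 9 genes tested, 2, 2, 2 and 1 fell in these comparisons and none rose. The medians of the list were 0.16, -0.80, -0.05 and -0.61. B and plasma cell markers summed to 78.0 to 202.8 CPM in WT, 34.6 to 88.3 in PGRN knockout and 121.5 to 229.8 in 14-3-3e knockout libraries, with WT and PGRN knockout overlapping. Stromal marker sums, given above, were lowest in PGRN knockout libraries. They reached highest in 14-3-3e knockout libraries, whose range overlapped that of WT. Of 11 stromal markers tested, 4 and 5 fell and 0 rose in PGRN knockout M1 and M2. In 14-3-3e knockout M1 and M2, 5 and 2 rose and 0 fell. Macrophage markers summed to 8224 to 19983 CPM in WT, 16004 to 23119 in PGRN knockout and 5013 to 11764 in 14-3-3e knockout libraries. These ranges pool the polarizations, WT being at 13027 to 19983 in M1 and 8224 to 8552.5 in M2. Of 11 markers tested, 6 rose and 1 fell in PGRN knockout M1, and 5 rose in M2. In 14-3-3e knockout cells 7 fell and 1 rose in M1, and 2 fell in M2. The part of any of these cells in the members' differences was not tested.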

How the data were processed

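RNA of 18 macrophage libraries was analysed. Each deposited value is on the log2 scale: 1 was added to a gene's normalized count before the logarithm. Per the submitters' processing notes, STAR, RSEM 1.3.1 and DESeq2 were used; a human build is named there although the gene identifiers are mouse ones, and it was not used. The values turned back into whole multiples of 1 step for 100% of genes, to within 0.1, and that step gave the reads and depth of each library; a count test was not the main test. Of 43309 identifiers, 42425 matched GENCODE M21 on GRCm38. No column was left unmatched.

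Testing covered 21336 genes, those reaching a normalized count of 1 in 3 or more libraries, and used limma 3.58.1 in R 4.3.3 (trend, robust) in 1 fit of 6 groups, on log2 of the value plus a pseudocount of 1, so that fold changes of low genes are understated. P-values were adjusted by Benjamini-Hochberg over all genes, with a threshold of 0.05. Copies were found with blastn 2.17.0, and tables were made with Python 3.11.15, numpy 2.4.6 and pandas 2.3.3. The fit was also run on simulated reads with known changes. That outcome is not reported here, and no result above rests on it. Members, lists and family sums were chosen with earlier results of these data known. Named were Rpl3, Rpl17, the Rps3a rows, stalk genes, Rpsa, paralogs, the 4 largest rises and falls per comparison among members of at least 5 CPM, the 5 highest and lowest levels, and up to 4 genes per list; Rpl13a, Rps13 and its copies, Rps25 and the read-split examples were named after their values were seen. 1 gene that this rule for named genes picks is not reported here.

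Replicate numbers paired the libraries only between M1 and M2 of the 14-3-3e knockout, where same-numbered libraries deviated together (r = 0.53, 0.40 and 0.43), a hint from the data rather than a statement of the labels. Alternatives were another pseudocount, other filters, other scalings, voom weights, equal depth, the replicate block, fits of only the groups compared and each library left out.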

Additional observations from a re-analysis of the deposited data

How the results depend on the processing

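Directions of the members held, in that the median difference of each of the 7 comparisons stayed below 0 under the alternatives run, but the number of calls did not. Of 3832 values of single genes under alternatives, 3490 kept direction and side of the threshold, 202 lost and 120 gained a call, and 20 turned sign. Of those 20, Rpl7l1 in PGRN knockout M1 against M2 turned to -0.029 with scaling by library totals. The others turned when copies were summed. In PGRN knockout cells Rps3a3 went to -0.41 (M1 against M2), and against WT in M1 Rps12l1 went to -0.51, Rps3a2 to -0.46 and Rpsa to -0.58 (-0.48 with the -ps and -rs copies alone). In 14-3-3e knockout against WT, Rpl3 went to 0.0323 in M1 (0.0321 with the -ps and -rs copies alone), and Rps3a2 and Rps3a3 to -0.21 in M1 and -0.21 in M2. Between the knockouts Rpl3 went to 0.28 in M1 and 0.0674 in M2 (0.28 and 0.0681 with the -ps and -rs copies alone), Rplp0 to 0.23 and 0.0746, and Rps3a1 to 0.25 and 0.0773.

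In the order WT, PGRN knockout and 14-3-3e knockout M1 against M2, then PGRN knockout and 14-3-3e knockout against WT in M1 and M2, leaving out 1 library gave 21 to 51, 23 to 27, 7 to 12, 19 to 69, 11 to 37, 13 to 64 and 10 to 34 called members. For family totals it gave 28 to 71, 31 to 38, 16 to 21, 20 to 81, 4 to 35, 2 to 74 and 2 to 17. Both tests of a difference in knockout effect stayed at 0 without any 1 library, and each gave 1 member without the 2 libraries rich in rRNA-like reads.

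Fitting only the groups compared called 8, 64 and 49 members and 16, 69 and 61 family totals between M1 and M2. It called 15 (PGRN) and 8 (14-3-3e) members and 3 and 1 family totals against WT in M1, and 65 and 41 family totals in M2. With a replicate block in that fit, 69 and 58 members and 73 and 63 family totals were called in PGRN and 14-3-3e knockout M1 against M2. A replicate block over all 6 groups called 48 family totals for PGRN knockout against WT in M2, and 26 and 21 for 14-3-3e knockout in M1 and M2, and otherwise moved no count by over 1.5 times. Scaling by library totals called 43, 55 and 46 members and 57, 66 and 61 family totals between M1 and M2. Against WT it called 51 family totals for PGRN knockout in M2, and 4 and 2 for 14-3-3e knockout in M1 and M2.

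A minimum of 5 CPM called 50 family totals for PGRN knockout against WT in M2, and 23 and 22 for 14-3-3e knockout in M1 and M2. Voom weights called 50 and 24 in M2, equal depth 7 for 14-3-3e knockout in M2, and no filter 9 in M1. Without the 2 libraries rich in rRNA-like reads, 77 and 74 members and 82 and 75 family totals were called against WT in M1, and 63 and 34 family totals in M2. Without replicate 1 of WT in both polarizations, 41 members in WT and 36 in 14-3-3e knockout were called between M1 and M2, and 26 and 16 against WT in M1. Family totals were then 64, 65 and 55, and against WT 31 and 7 in M1 and 59 and 43 in M2. The cause of these shifts was not tested, beyond the fewer libraries in some. The shares of all genes called under these alternatives are not given, so the counts show no shift particular to the members.

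The share of reads in members moved with copies named -ps or -rs to 2.62% in PGRN knockout M1, 3.08% in 14-3-3e knockout M1, 5.15% in WT M2, 3.86% in PGRN knockout M2 and 4.30% in 14-3-3e knockout M2. With all sequence copies the group means were 4.18%, 2.97% and 3.55% in M1 and 5.80%, 4.37% and 4.96% in M2. Depth limits rows at a few reads, such as Rpl3l, and WT M1 replicate 1 above all.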
